A study of Homo sapiens with 6 samples.

Results

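The regulatory regions described here surround 4 genes of blood progenitor control, MYB, ETV6, ZEB2 and HHEX, in the human leukemia cell line ME-1. They comprise every peak of the 4 deposited lists that touches 1 of 4 windows of hg19: chr6 from 135.35 to 135.6 Mb for MYB, chr12 from 11.75 to 12.1 Mb for ETV6, chr2 from 145.09 to 145.33 Mb for ZEB2 and chr10 from 94.4 to 94.5 Mb for HHEX. This gave 489 peaks of 145457 in all: 1 and 13 RUNX1 sites in DMSO and AI-10-49, and 226 and 249 regions of H3K27ac. ME-1 carries inv(16), an inversion that joins CBFB to MYH11 and yields the fusion protein CBFβ-SMMHC, a partner of the transcription factor RUNX1. AI-10-49 is a small molecule inhibitor of the binding between CBFβ-SMMHC and RUNX1. The cells were kept 6 h with DMSO alone or with 1 µM AI-10-49, and ChIP-seq was done for RUNX1 and for H3K27ac, a histone acetylation of active promoters and enhancers. All groups therefore share 1 inv(16) cell line, and each antibody and condition had 1 library, so differences below compare single libraries, without a test.

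Progenitor identity in blood rests on a small number of transcription factors that keep self-renewal and lineage programs in balance. MYB activates genes of immature, dividing progenitors, and it is known for distal enhancers in the stretch between HBS1L and MYB. ETV6 is a repressor of the ETS family needed by adult blood stem cells, and it is fused to RUNX1 in some childhood leukemias. ZEB2 is a zinc finger repressor that guards lineage choice, and HHEX is a homeobox repressor of the early progenitor. Broad H3K27ac stretches are a known mark of genes that define a cell's identity.

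The proximal promoters of these genes are shown as context for their acetylated regions. They are the 250 bases before each RefSeq gene start (GRCh38.p14), 5′ to 3′ on the gene's strand, with CpG dinucleotides in capitals:
MYB: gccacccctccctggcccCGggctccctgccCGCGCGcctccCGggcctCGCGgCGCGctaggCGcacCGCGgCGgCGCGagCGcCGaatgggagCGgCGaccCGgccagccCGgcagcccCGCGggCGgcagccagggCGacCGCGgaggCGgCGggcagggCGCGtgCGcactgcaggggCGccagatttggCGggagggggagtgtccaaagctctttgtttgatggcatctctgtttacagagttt
ETV6: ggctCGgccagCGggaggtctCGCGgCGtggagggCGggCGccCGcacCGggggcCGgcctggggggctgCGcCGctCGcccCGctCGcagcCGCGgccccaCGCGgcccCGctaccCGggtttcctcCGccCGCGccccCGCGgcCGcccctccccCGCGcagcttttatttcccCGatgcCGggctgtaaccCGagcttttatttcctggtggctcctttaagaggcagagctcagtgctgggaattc
ZEB2: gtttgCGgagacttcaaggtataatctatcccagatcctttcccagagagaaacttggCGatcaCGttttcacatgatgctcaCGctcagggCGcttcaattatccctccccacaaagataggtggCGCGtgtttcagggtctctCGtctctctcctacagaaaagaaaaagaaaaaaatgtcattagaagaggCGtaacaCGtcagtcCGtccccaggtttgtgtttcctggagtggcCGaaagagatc
HHEX: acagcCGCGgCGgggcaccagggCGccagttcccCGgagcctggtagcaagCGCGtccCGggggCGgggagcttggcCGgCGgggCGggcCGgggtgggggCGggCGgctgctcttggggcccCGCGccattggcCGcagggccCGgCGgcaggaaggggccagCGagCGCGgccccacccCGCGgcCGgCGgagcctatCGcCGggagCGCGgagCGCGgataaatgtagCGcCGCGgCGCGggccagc
MYB, ETV6 and HHEX have 34, 32 and 38 CpG in this stretch, and ZEB2 has 12, where the median of 35116 promoters is 11. None of the 4 holds the RUNX core TGTGGT on either strand, which 11% of all these promoters do, and none holds the wider form TGNGGT, of which TGTGGT is a case, found in 37.7%. These letters say nothing on binding elsewhere in the windows. Peak positions are hg19 and the gene table was of another build, so no peak is assigned here to a promoter, exon or intron. In gene order MYB lies between HBS1L and AHI1, ETV6 between PRB2 and BCL2L14, ZEB2 between QTMAN and ACVR2A, and HHEX between KIF11 and EXOC6.

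Depth was recovered from the peak lists as reads of each precipitated library, 33.8 and 31.5 M reads (M, mega) for RUNX1 in DMSO and AI-10-49 and 35.7 and 37.0 for H3K27ac. By the recovered factors, peaks were scored with these scaled to 33.8 and 27.6 M reads for RUNX1 and 34.0 and 27.6 for H3K27ac. The depth at scoring was thus lower in AI-10-49. Its part in the number, length and splitting of regions was not tested. Levels below are the fragments stacked over a peak's summit, per M reads, with 95% Poisson intervals that cover counting error only, as PCR copies are not independent molecules. Fragments were 1.13 times (RUNX1) and 1.09 times (H3K27ac) as long in AI-10-49, which raises summit stacks there and is not corrected. A peak absent from a list has no recorded level, so absence means below the peak caller's threshold and not zero.

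RUNX1 was called at 1 site in DMSO, in the ETV6 window, and at 13 sites in AI-10-49, of which 6 lay in the ETV6 window, 3 each in the MYB and HHEX windows and 1 in the ZEB2 window. Of the 13, 12 overlapped no DMSO site, where 85.1% of the whole AI-10-49 list did so. The 13 to 1 ratio of site numbers has a counting interval of 1.95 to 552, which includes the ratio of 6.07 over the whole lists. At these counts a gain in number beyond that of the genome was not detectable in the windows. The DMSO site was also in the AI-10-49 list, as were 91.2% of all DMSO sites.

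**Figure D1:**
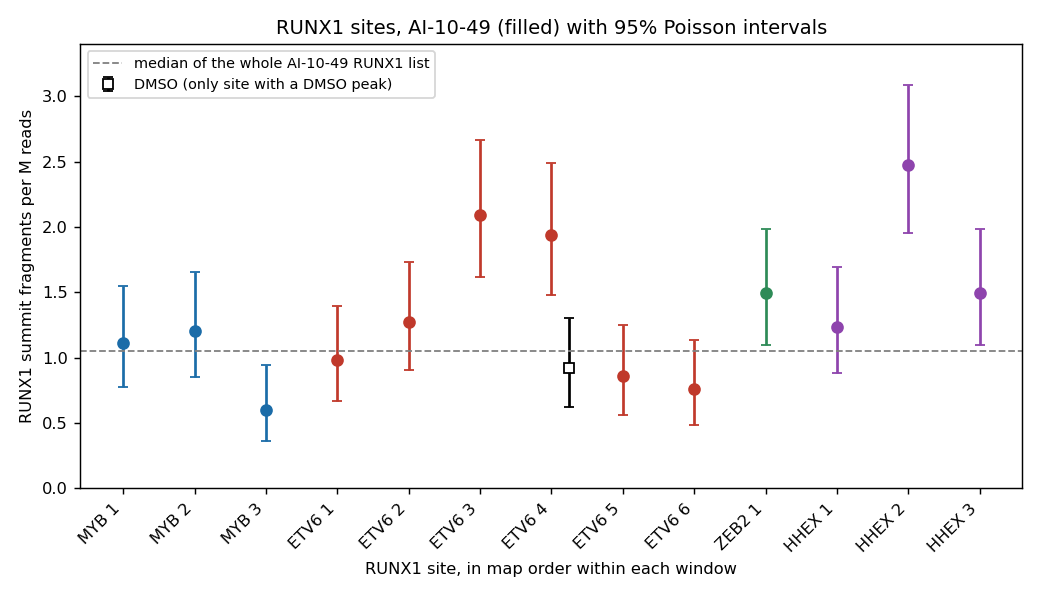
RUNX1 summit fragments per M reads (vertical axis) at the 13 sites of the AI-10-49 list, in map order within each window, with 95% Poisson intervals, the DMSO value (open square) at the single site with a DMSO peak, and the median of the whole AI-10-49 list (dashed line, 1.05). The middle HHEX site is highest at 2.47 and the last MYB site lowest at 0.603.

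The RUNX1 site found in both conditions lay in the ETV6 window at chr12:11951893-11952092 in DMSO and chr12:11951843-11952138 in AI-10-49. It held 31 summit fragments in DMSO, or 0.918 per M reads (0.624 to 1.30). In AI-10-49 it held 61, or 1.94 per M reads (1.48 to 2.49), and the summits lay 12 bp apart. The AI-10-49 level was 2.11 times the DMSO level, with intervals that did not meet before any correction for fragment length. Divided by the ratio of fragment lengths it was 1.86 times, and by the authors' fold enrichment 1.69 times. The uncorrected ratio was close to the median of 2.10 (quartiles 1.52 and 2.97) over the 1551 DMSO sites in both lists. Of those sites 93.8% were higher in AI-10-49, also uncorrected.

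The HHEX window held the densest group. Its 3 RUNX1 sites lay within 2220 bp, all inside 1 acetylated region of DMSO, and none had a DMSO RUNX1 site within 115 kb. The middle site, chr10:94450043-94450983, was the strongest and widest of all 13, with 78 fragments, 2.47 per M reads (1.96 to 3.09) and a fold enrichment over local background of 11.7, as deposited by the authors. It stood at percentile 90.3 of the whole AI-10-49 list by fragments per M reads. Its neighbours chr10:94449435-94449836 and chr10:94451349-94451654 had 1.24 (0.880 to 1.69) and 1.49 (1.10 to 1.98) per M reads. The interval of the first lies below that of the middle site, and the interval of the last meets it.

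In the ETV6 window the 6 AI-10-49 sites were spread over 207 kb. The highest was chr12:11899132-11899591 with 66 fragments, 2.09 per M reads (1.62 to 2.66), beside the shared site at 1.94. Next came chr12:11872751-11872991 with 1.27 (0.907 to 1.73) and chr12:11801671-11802282 with 0.984 (0.668 to 1.40). The sites chr12:11989350-11989607 and chr12:12008637-12008807 were weaker, with 0.857 (0.565 to 1.25) and 0.761 (0.488 to 1.13). The intervals of the highest pair lay above those of the last 3 sites named, and the interval of chr12:11872751-11872991 met those of all the others.

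The MYB window had no DMSO site and 3 sites in AI-10-49, all of them with fewer fragments than the top sites of ETV6 and HHEX. The site chr6:135516327-135516956 had 38 fragments, 1.21 per M reads (0.853 to 1.65), and chr6:135449757-135449958 had 35, 1.11 per M reads (0.773 to 1.54). The last, chr6:135583600-135583813, had 19 fragments and 0.603 per M reads (0.363 to 0.941) with a −log10 q of 2.93, at percentile 1.68 of its list by that measure. Beyond the window's end, within 50 kb, AI-10-49 had a weaker site at chr6:135602033-135602224 with 26 fragments, 0.825 per M reads. Farther out it had a stronger site at chr6:135644112-135644686 with 89 fragments, 2.82 per M reads, which contains a DMSO site of 0.681 per M reads. The ZEB2 window held 1 site, chr2:145140508-145140888, with 47 fragments, 1.49 per M reads (1.10 to 1.98) and a fold enrichment of 10.5. No DMSO RUNX1 site lay within 4163 kb of it.

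Among the 12 AI-10-49-only sites, 9 had more summit fragments per M reads than the median DMSO site of the whole list (0.918), and all 12 exceeded the fifth percentile of that list (0.503). These 12 sites entered by passing the AI-10-49 peak threshold. The whole AI-10-49 list had a lower quartile of 0.793, so these counts do not set the sites apart. Of the 13 sites, 9 lay above the AI-10-49 list's own median of 1.05. Each of the 13 overlapped an acetylated region of AI-10-49 (75.3% to 100% by an exact Clopper-Pearson interval), where 86.1% of the whole list did, and each overlapped one of DMSO, where 89.8% did. The genome-wide share for AI-10-49 regions lies inside the interval. By summit, 13 of 13 lay inside a DMSO region (76.2% in the whole list) and 11 of 13 inside an AI-10-49 region (68.4%).

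The exceptions were at HHEX and ZEB2. In AI-10-49 the summit of the first HHEX site fell in a gap of 94 bp between 2 acetylated regions, chr10:94448591-94449565 and chr10:94449660-94453366, where DMSO had 1 unbroken region. The summit of the ZEB2 site fell in a gap of 183 bp, 4 bp short of chr2:145140660-145141056. In DMSO the ZEB2 summit lay just inside chr2:145140641-145141066, a weak region of 27 fragments.

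**Figure D2:**
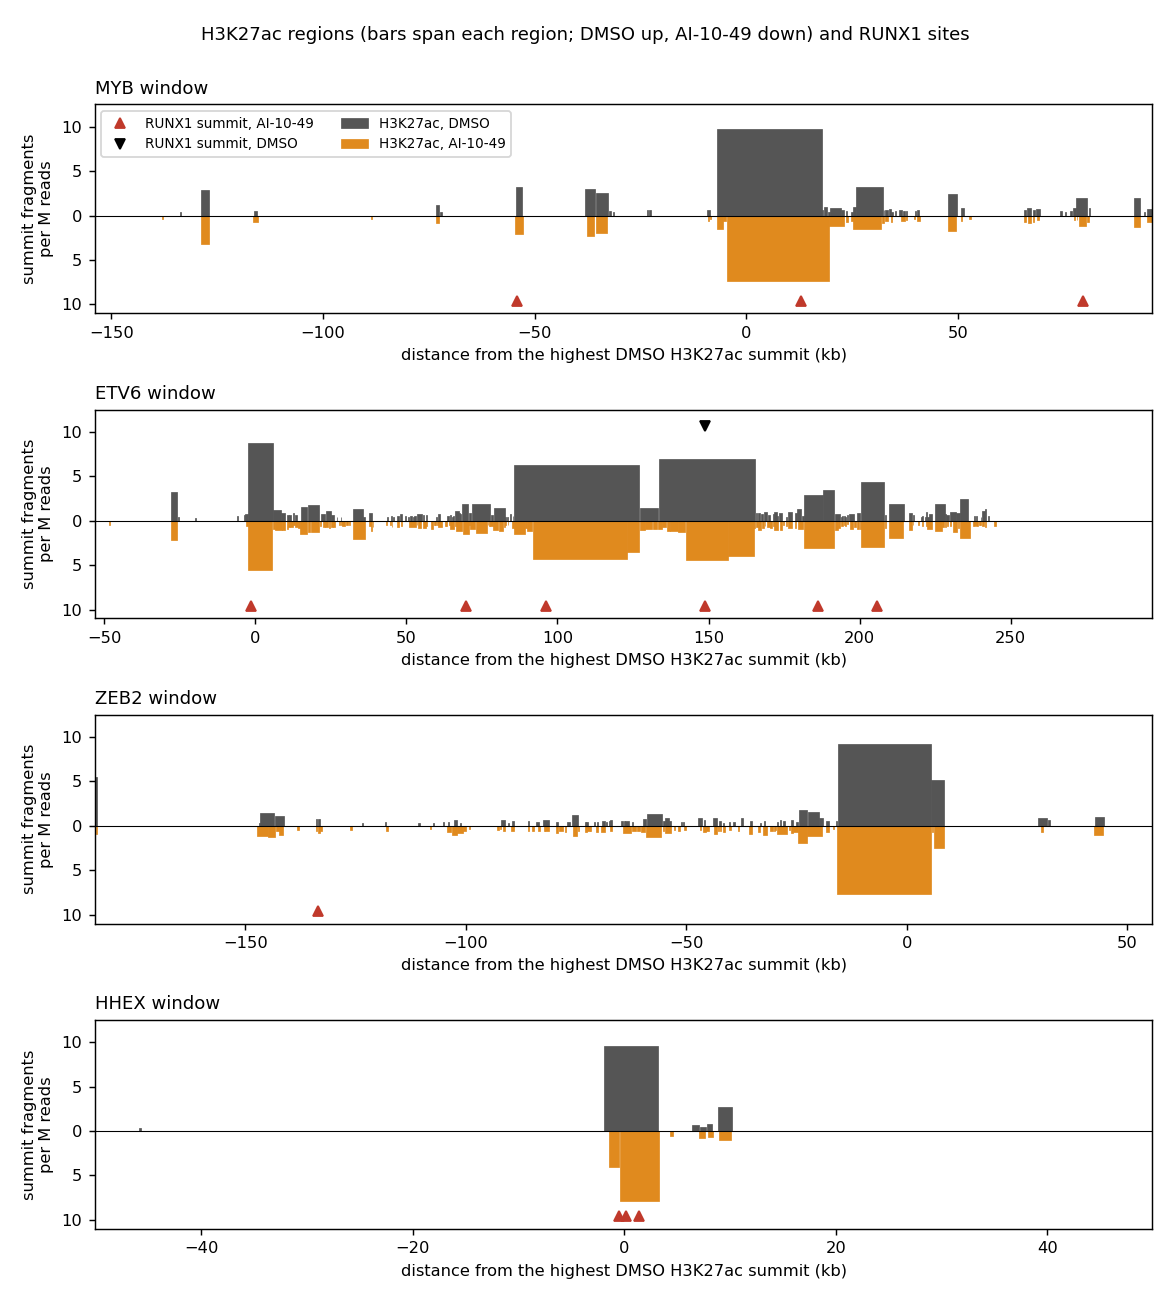
H3K27ac regions of each window as bars that span the region (horizontal axis, kb from the highest DMSO summit) and whose height is the summit fragments per M reads, DMSO upward and AI-10-49 downward. Triangles mark RUNX1 summits (AI-10-49 below, the single DMSO summit above the ETV6 window), and the broad bars of ETV6, MYB and ZEB2 are visible in both conditions, the ETV6 bars in more pieces in AI-10-49.

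The windows held some of the broadest H3K27ac regions of the genome. The widest of all 67087 DMSO regions of the genome lay in the ETV6 window, chr12:11888894-11930245, at 41.4 kb, and the region that ranked 4 by width lay beside it, chr12:11936708-11968437, at 31.7 kb. The widest MYB region, chr6:135497182-135521818 (24.6 kb), ranked 10, and that of ZEB2, chr2:145258682-145279753 (21.1 kb), ranked 12. HHEX had a narrower region, chr10:94448181-94453232 (5.05 kb), at rank 1055. The median width was 551 bp in the DMSO list and 478.5 bp over the windows' 226 regions, so most of these were not broad.

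**Figure D3:**
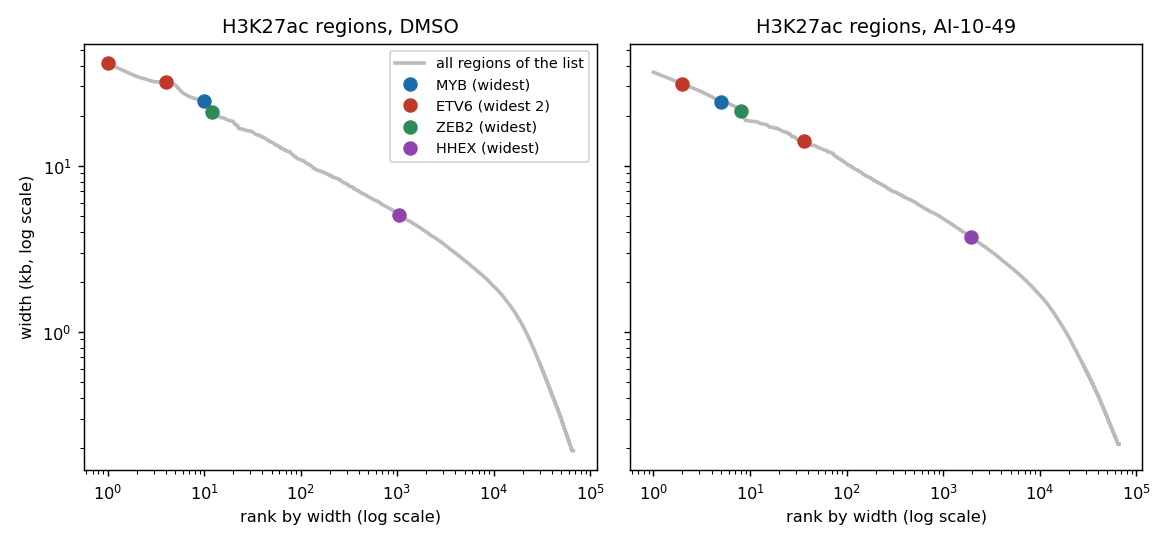
Width in kb of every H3K27ac region against its rank (both axes log), DMSO left and AI-10-49 right, with the widest regions of the 4 windows as points. In DMSO the points for ETV6, MYB and ZEB2 stand at ranks 1, 4, 10 and 12, and HHEX at 1055. In AI-10-49 they stand at ranks 2 and 36, 5 and 8, and HHEX at 1940.

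In AI-10-49 the widest regions of the windows still ranked high, at 31.2 kb for ETV6 (chr12:11894951-11926113, rank 2 of 66350), 24.2 kb for MYB (chr6:135499384-135523545, rank 5) and 21.3 kb for ZEB2 (chr2:145258400-145279682, rank 8). The widest HHEX region was 3.71 kb (chr10:94449660-94453366, rank 1940). Summit height was also high. By fragments in DMSO, MYB's widest region (346 fragments, 9.69 per M reads) ranked 57, that of HHEX (341, 9.55 per M reads) 80 and that of ZEB2 (329, 9.22 per M reads) 143. The highest ETV6 region, chr12:11800878-11808867 (313, 8.77 per M reads), ranked 297. HHEX thus matched MYB and ZEB2 in height but not in width.

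Against this acetylated length RUNX1 sites were few, except at HHEX. With all sites counted, inside acetylated regions or not, there were 3.81 RUNX1 sites per 100 kb of acetylated sequence over the 4 windows in AI-10-49. Over the genome there were 16.5. All 13 window sites overlapped such a region and 86.1% of the genome's did, so the genome value also counts sites outside acetylated sequence. By window the density was 42.3 for HHEX, 4.86 for MYB, 3.06 for ETV6 and 1.31 for ZEB2. Of the 249 AI-10-49 regions 12 (4.82%) held a site, against 13.7% of the whole list. The 21.3 kb ZEB2 region held none, and the 24.2 kb MYB region held 1, which lay 13205 bp from its acetylation summit. These densities rest on 1 to 6 sites a window, and no comparison with regions of equal width was made. Per length of all sequence, sites were not fewer than in the genome. The windows had 13 in 940 kb, the genome 10319 in an assumed 2700000000 bp.

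The number of acetylated regions moved differently between the windows, while covered length moved little. In the MYB window 48 regions (66.9 kb) were called in DMSO and 37 (61.7 kb) in AI-10-49. In the ETV6 window there were 104 (192 kb) and 131 (196 kb), and in the ZEB2 window 68 (68.8 kb) and 75 (76.3 kb). The HHEX window had 6 (8.30 kb) and 6 (7.09 kb). The ratio of covered length, AI-10-49 over DMSO, was 0.922 for MYB, 1.02 for ETV6, 1.11 for ZEB2 and 0.855 for HHEX, and 0.908 over the genome. With regions below a −log10 q of 10 left out the numbers were 16 and 14 for MYB, 40 and 44 for ETV6, 21 and 17 for ZEB2, and 2 and 3 for HHEX.

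Most of the windows' regions were in both lists. Of 226 DMSO regions 41 (18.1%) had no AI-10-49 partner, against 29.0% of the whole DMSO list. Of 249 AI-10-49 regions 53 (21.3%) had no DMSO partner, against 21.0% of the whole list. Those 94 were narrow and weak, with median widths of 279 and 278 bp and at most 32 and 35 summit fragments. The share of AI-10-49-only regions was 33.3% at ZEB2 (25 of 75) and 16.8% at ETV6 (22 of 131). At MYB 12 of 48 DMSO regions (25%) and 5 of 37 AI-10-49 regions (13.5%) stood alone.

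By −log10 q the first unpaired region was the DMSO-only chr2:145236743-145237145 in the ZEB2 window, with 32 fragments and a −log10 q of 16.0. It lay 0.499 kb from the nearest AI-10-49 region. The AI-10-49-only region chr12:11861258-11862028 of ETV6 came next, with a −log10 q of 14.2 and more fragments, 35. The next DMSO-only regions of ZEB2 and MYB were chr2:145306196-145306647 (23 fragments), chr6:135471617-135472138 (20) and chr6:135481075-135481600 (23). The AI-10-49-only regions of MYB had at most 16 fragments.

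At ETV6 the broad acetylation was listed in more pieces after AI-10-49. In DMSO 3 regions ran from chr12:11888894 to 11968437, 79.5 kb with gaps of 66 and 217 bp. Over the same stretch AI-10-49 had 16 regions that covered 76.5 kb, with gaps of 47 to 513 bp. The 41.4 kb region overlapped 5 AI-10-49 regions and the 31.7 kb region 8. In the whole window 26 of 104 DMSO regions (25%) overlapped at least 2 AI-10-49 regions, against 13.2% of the DMSO list, and 19 of 131 AI-10-49 regions overlapped at least 2 DMSO regions (14.5%, 7.82% of the list). Both shares lay above those of the lists. The corresponding counts were 5 of 48 (10.4%) and 7 of 37 (18.9%) at MYB, and 8 of 68 (11.8%) and 9 of 75 (12%) at ZEB2. At HHEX they were 1 of 6 and 0 of 6. The share of AI-10-49 regions that join DMSO regions was thus above the list's at MYB and ZEB2 too. The share of split DMSO regions there was below the list's. Wide regions have more room to overlap several others, and the part of width in these counts was not tested.

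Within those broad ETV6 regions the highest point shifted. In the 41.4 kb region the DMSO summit (225 fragments, 6.30 per M reads) lay 27464 bp from the summit of the RUNX1 site chr12:11899132-11899591. In AI-10-49 the region over the former summit, chr12:11926294-11930035, had 129 fragments, 3.49 per M reads (2.91 to 4.14). The highest point of AI-10-49 was now in chr12:11894951-11926113, with 158 fragments, 4.27 per M reads (3.63 to 4.99), 373 bp from the RUNX1 summit. In the 31.7 kb region the DMSO summit (249 fragments, 6.98 per M reads) lay 13920 bp from the summit of the shared RUNX1 site. In AI-10-49 the region there, chr12:11959651-11968074, had 149 fragments, 4.03 per M reads (3.41 to 4.73). That of the RUNX1 site, chr12:11945518-11959511, had 163, 4.41 per M reads (3.76 to 5.14), with its summit 594 bp from the RUNX1 summit. In both cases the 2 AI-10-49 values had overlapping intervals, so the order of the 2 highest points is within counting error.

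Over all 13 RUNX1 sites the nearest H3K27ac summit of an overlapping region was closer in AI-10-49 at 6 (46.2%). Over the 8720 AI-10-49 sites of the genome with a region of both lists it was closer at 46.6%. The 13 sites as a group thus had a share near that of the genome.

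H3K27ac levels were compared at the 185 DMSO regions of the windows found in both lists, each with its highest overlapping AI-10-49 region. The median ratio, AI-10-49 over DMSO, was 1.10 (quartiles 0.839 and 1.41), against 0.838 (0.634 and 1.16) for 47607 regions of the genome. The values by window were 0.984 at MYB, 1.10 at ETV6, 1.17 at ZEB2 and 0.824 over the 4 regions of HHEX. With the authors' fold enrichment in place of fragments the median turned to 0.981 at ETV6 and to 1.45 at HHEX, so the direction at these 2 windows depends on the measure. In 72 of the 185 pairs the summits lay over 250 bp apart, some of them because the other list joins the region to a larger one. With summits within 250 bp, the median was 1.03 over 113 regions of the windows and 0.799 over 35221 of the genome.

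The ratio varied with the level. At strong regions, with at least 100 DMSO summit fragments, the median was 0.677 over 16 regions of the windows and 0.651 over 11981 of the genome. Of the 16, 14 were lower in AI-10-49 (96.1% in the genome) and 6 were at most 1/1.5 of the DMSO level (53.2%). Strong regions of these windows thus had a median ratio near that of strong regions elsewhere. The windows held weaker regions than the genome: the median DMSO level was 0.700 per M reads over the 185 regions and 1.15 over the genome.

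**Figure D4:**
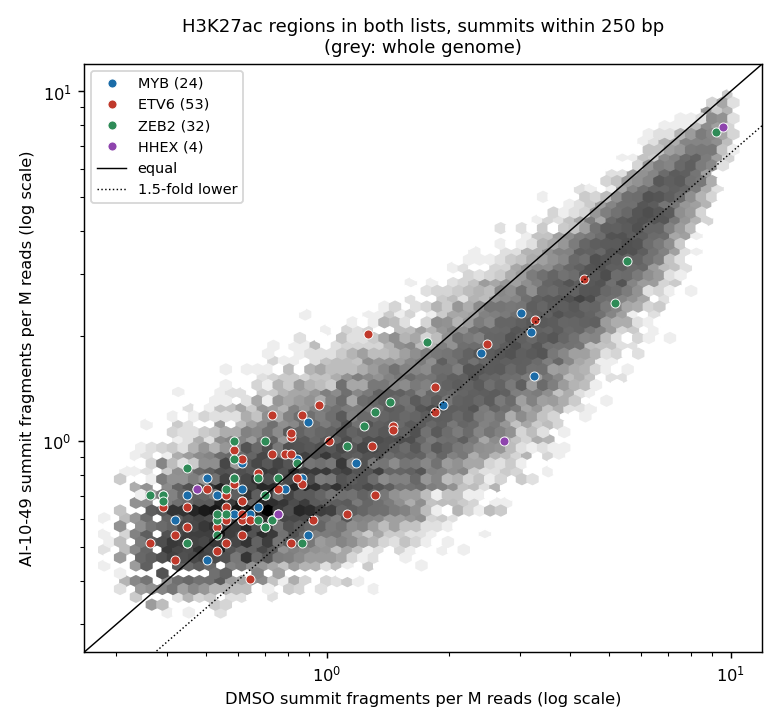
H3K27ac summit fragments per M reads in DMSO (horizontal) and AI-10-49 (vertical), both log, for regions in both lists with summits within 250 bp. Coloured points are the windows' 113 regions and grey cells the 35221 of the genome, and points at high DMSO levels lie below the line of equality while weak ones lie on either side.

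At MYB the widest region had 9.69 per M reads (8.70 to 10.8) in DMSO, compared with 7.38 (6.53 to 8.31) in AI-10-49, a ratio of 0.761 with summits 343 bp apart. The second widest, chr6:135529963-135536369, had 3.25 (2.69 to 3.90) and 1.54 (1.17 to 2.00), a ratio of 0.474 and the lowest of the window. Before the widest region in coordinate order stood a row of narrower ones. The region chr6:135449475-135450915, which holds a RUNX1 site, had 3.19 (2.63 to 3.84) and 2.05 (1.62 to 2.57). At chr6:135465839-135468217 the levels were 3.03 (2.48 to 3.65) and 2.33 (1.86 to 2.87), and at chr6:135468435-135471318 they were 2.49 (2.00 to 3.07) and 1.92 (1.5 to 2.42). Farthest away, chr6:135375134-135376955 had 2.89 (2.36 to 3.50) and 3.19 (2.64 to 3.82). Of these 6, 3 were lower in AI-10-49 with intervals that did not meet. They were the widest, the second widest and chr6:135449475-135450915, of which the first and the last hold a RUNX1 site. The share of regions with such intervals over the genome was not computed.

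At ETV6 the region with most fragments, chr12:11800878-11808867, had 8.77 per M reads (7.83 to 9.80) in DMSO, compared with 5.54 (4.81 to 6.36) in AI-10-49, a ratio of 0.632. The RUNX1 site chr12:11801671-11802282 lies in it. At chr12:12003526-12011160, with the weakest RUNX1 site of the window, the levels were 4.34 (3.69 to 5.08) and 2.92 (2.40 to 3.53), a ratio of 0.672. A weak region, chr12:12044486-12044962, had the lowest ratio (0.534), from 47 to 26 fragments with intervals that met. Of the 92 regions in both lists 5 had intervals that did not meet, 4 of them lower and 1 higher in AI-10-49. The share of such regions over the genome was not computed, so it is not known whether 5 is many or few. The higher one, chr12:11838912-11839510, took its AI-10-49 value from a summit 1329 bp away. Of the lower ones, the 41.4 kb, 31.7 kb and 7.99 kb regions did so from summits 27837, 14514 and 986 bp away, and chr12:12003526-12011160 from 79 bp.

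At ZEB2 the broad region stayed high, with 9.22 per M reads (8.25 to 10.3) in DMSO, compared with 7.65 (6.79 to 8.60) in AI-10-49, a ratio of 0.830 with intervals that met. Its neighbour chr2:145279811-145282638 had 5.18 (4.46 to 5.99) and 2.49 (2.01 to 3.05), a ratio of 0.480. At the window's edge chr2:145088431-145090641 had 5.55 (4.80 to 6.38) and 3.27 (2.71 to 3.91). Both summits lay outside the window, and the AI-10-49 region lay wholly outside it. The DMSO region counts among the strong regions of the window only because its end reaches into it. Among weak regions, 8 of 29 with under 100 DMSO fragments and summits within 250 bp were at least 1.5 times higher in AI-10-49, against 8.32% in the genome. The ZEB2 regions were weaker than those of the genome, and with at most 25 DMSO fragments it was 8 of 20, against 17.9% in the genome. These 8 had 13 to 21 DMSO fragments and ratios of 1.52 to 1.93, and for each the intervals of the 2 conditions met.

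At HHEX the broad region had 9.55 per M reads (8.57 to 10.6) in DMSO, compared with 7.89 (7.01 to 8.85) in AI-10-49, a ratio of 0.826 with intervals that met. The authors' fold enrichment there was 20.3 in DMSO and 31.2 in AI-10-49, the opposite direction. It was listed in AI-10-49 as 2 regions, of which the smaller had 151 fragments, 4.08 per M reads. A second region, chr10:94458970-94460274, had 98 fragments and 2.75 per M reads (2.23 to 3.35) in DMSO, and 37 and 1.00 (0.704 to 1.38) in AI-10-49. Its ratio of 0.364 was the lowest of all 185 regions in the 4 windows, and no RUNX1 site overlapped it. HHEX thus kept a high acetylated core, over which 3 RUNX1 sites were called in AI-10-49 only. The lower flank was chr10:94458970-94460274. Weak regions of both lists between it and the core had ratios of 1.53 and 0.822, with intervals that met.

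The highest ratios of MYB and ZEB2 came from joined regions, and are no measure of level. The MYB region chr6:135523264-135523679 had 13 fragments in DMSO and a ratio of 20.3, from a summit 19708 bp away. The ZEB2 region chr2:145258096-145258542 had 20 and a ratio of 13.7, from a summit 16026 bp away. Of the 185 regions 37 had a ratio of at least 1.5, against 12.8% in the genome, and 22 of the 37 rested on summits over 250 bp apart. With summits within 250 bp it was 15 of 113 (13.3%), against 5.99%, and with at most 25 DMSO fragments as well it was 13 of 60 (21.7%), against 17.9%. A ratio of at most 1/1.5 was found at 17 of the 185 (9.19%), against 29.1% in the genome, where strong regions are more frequent. Of the 11 DMSO regions that hold RUNX1 sites, 9 had a lower level in AI-10-49, with ratios of 0.601 to 1.09. The value of 1.09 came from a summit 2572 bp away in a joined region. The 41.4 kb and 31.7 kb regions of ETV6 also took theirs from distant summits, 27837 and 14514 bp away. Most of the 11 were strong regions. Of the 8 with at least 100 DMSO fragments 7 were lower, where 96.1% of such regions of the genome were. The share is thus no higher than elsewhere. Over regions of any level 64.4% of the genome was lower.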

How the data were processed

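ME-1 chromatin was profiled in 6 libraries, of which 4 had a peak list, and the 2 inputs were not used here directly. Tools listed in the submitters' processing notes, roles not given, are MACS2 2.1.0, Bowtie2 2.1.0, Picard 1.96, SAMtools 1.3 and CASAVA 1.4, with build hg19. The sources used here do not give the input behind each list. Deposited values per peak are the ratio (fold enrichment over local background), −log10 p and −log10 q, all by the authors. Summit fragments were recovered from fold and −log10 p with the factor at which they are whole numbers (100% of peaks solved within 0.003). Reads follow from the lowest background, the shortest peak and an assumed genome of 2700000000 bp. Peaks were paired by 1 bp of overlap, with the highest overlapping partner. Shares carry Clopper-Pearson intervals, and 95% is the level throughout. Code was tested on simulated data (Python 3.11.15, numpy 2.4.6, pandas 2.3.3, scipy 1.17.1, matplotlib 3.10.9). The windows and lists were chosen with earlier results of these data known. Named RUNX1 sites are all 14. Named H3K27ac regions are those that per window and list had most fragments or were widest (3 each), had the lowest or highest ratio (at least 30 fragments in either library), or had the highest −log10 q among those of 1 list only (2 each). The ETV6 regions chr12:12003526-12011160, chr12:11926294-11930035 and chr12:11959651-11968074, the ZEB2 region that holds the RUNX1 site, and the RUNX1 site outside the MYB window were added after their values were seen. Promoters came from RefSeq, and all 4 genes matched.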

Additional observations from a re-analysis of the deposited data

How the results depend on the processing

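Of 141 alternative values, 110 stayed within 1.5 times of a count or ratio or inside the interval of a share, 29 moved and 2 changed side of 1. With windows extended by 50 kb the DMSO RUNX1 sites numbered 2 and the AI-10-49 sites 19. By window the AI-10-49 sites were then 5 at MYB, 6 at ETV6, 2 at ZEB2 and 6 at HHEX. At a −log10 q of at least 10, H3K27ac regions numbered 79 (DMSO) and 78 (AI-10-49), since fewer regions are counted. The shares of H3K27ac regions in both lists (81.9% of DMSO and 78.7% of AI-10-49) came to 48.7% and 43.8% with 50% of both intervals required, 54.0% and 48.2% with summits within 250 bp, and 94.7% and 95.6% within 1 kb. With the authors' fold enrichment in place of fragments, the median ratio was 0.981 at ETV6 and 1.45 at HHEX (4 regions), and the cause was not tested. Ratios restricted to summits within 250 bp, and to at most 25 DMSO fragments, were added after seeing the data. RUNX1 counts, 1 to 6 a window, limit every statement on site number. No paired analysis was possible because there was 1 library for each antibody and condition.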
